A study of Mus musculus with 6 samples.

Results

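miR-218 is a microRNA (miRNA) enriched in motor neurons, and it was followed here through small RNA libraries of mouse spinal cord. Its rows were taken by name, as every row that begins with mmu-miR-218-, and 3 of the 1482 rows of the count table met that rule: miR-218-5p, miR-218-1-3p and miR-218-2-3p. The study compared 3 cords labelled control with 3 labelled SCI (spinal cord injury). Control mice received a T10 laminectomy and no cord lesion; SCI mice received the same laminectomy and a moderate contusion by a 10 g weight falling 20 mm. Both groups were killed on day 2 and share the laminectomy. The sources used here do not state the strain, sex or age of the mice. The contusion is a local lesion, and the piece of cord sampled around it, about 1 cm, holds neurons, glia, vessels and blood together. In such bulk tissue, a change in the number of cells of a type and a change in RNA per cell cannot be told apart. The design names 3 mice a group, and each library is taken to be 1 mouse; if libraries share an animal, the p-values measure technical spread.

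Motor neurons of the brainstem and spinal cord carry very high amounts of miR-218, and mice without it die of neuromuscular failure. It represses genes of other neuron types and of excitability and transmitter handling. Its 2 hairpins lie in introns of Slit2 and Slit3, which encode secreted axon guidance proteins that act on Robo receptors. Each hairpin is cut into a 5p and a 3p arm, and the arm that is kept loads into Argonaute and finds its targets mainly through the seed, bases 2 to 8.

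The sequences show why the rows of the table differ in what they can tell. The mature 5p form is the same in both hairpins, so a 5p read cannot be assigned to Slit2 or Slit3. Capitals mark its seed:
miR-218-5p: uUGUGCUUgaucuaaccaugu
In the hairpins, capitals mark this 21-base 5p form and the flanks differ. Mir218-1 lies at chr5:48223942-48224051 (plus strand) and Mir218-2 at chr11:35616816-35616925 (plus strand), on GRCm38.
Mir218-1: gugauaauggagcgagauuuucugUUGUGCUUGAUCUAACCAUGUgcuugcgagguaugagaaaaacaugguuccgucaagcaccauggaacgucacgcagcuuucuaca
Mir218-2: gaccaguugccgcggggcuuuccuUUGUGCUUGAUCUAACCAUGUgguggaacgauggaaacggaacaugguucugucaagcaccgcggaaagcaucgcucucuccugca
The 3p forms separate the loci. They overlap over 19 bases, offset by 3, with 1 difference (C12U, counted from the 5′ end of miR-218-1-3p, whose base comes first), shown in capitals:
miR-218-1-3p: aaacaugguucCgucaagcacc
miR-218-2-3p: caugguucUgucaagcaccgcg

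These sequences are RefSeq's, on GRCm38.p6, and all 3 rows matched by name. The 5p form occupies chr5:48223966-48223986 in Mir218-1 and chr11:35616840-35616860 in Mir218-2. By the GENCODE annotation, each hairpin lies on the sense strand of its host, within intron 14 of the principal coding transcript (36 exons in Slit2 and 36 in Slit3), and overlaps no annotated exon of it. RefSeq lists 1 other mouse miRNA with this seed, miR-7002-3p, which was not analysed here.

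Total counts ran from 5568491 to 8889977 per library, and the direction of the labels needs stating before any result. In SCI-labelled cords all 9 tested miRNAs of an injury response list were called lower (23.1% of all rows were), with a median log2 change of -2.83 against -0.07 over all 614 rows tested. miR-21a-5p, the best known of them, was at 100083 ± 27262 CPM (read counts scaled to a common library size) in control-labelled cords and 12003 ± 774 CPM in SCI-labelled cords (SD, n = 3 each). The value columns assigned to the SCI-labelled samples also carry names beginning with Normal. The groups are therefore called by their labels, and every direction below is that of the labels as deposited. Whether the labels or columns of the groups were exchanged was not tested; if they were, every direction, including that of miR-218-5p, would be the opposite.

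miR-218-5p (mmu-miR-218-5p in the table) was among the abundant miRNAs of the cord and was higher in SCI-labelled cords. Its raw counts were 56503, 32778 and 63921 in control-labelled libraries 1, 2 and 3. They were 171857, 112330 and 190274 in SCI-labelled libraries 1, 2 and 3. After scaling by TMM (trimmed mean of M-values, which sets each library's effective size), its level was 9047, 5934 and 7527 CPM in control-labelled cords. The SCI-labelled libraries had 21295, 17413 and 21555 CPM. The groups did not overlap, which held for 51.3% of all rows: the lowest SCI-labelled library stood well above the highest control-labelled one, and library 2 was the lowest in each group.

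The difference was 2.68-fold (log2 1.42, SE 0.21; edgeR quasi-likelihood adjusted p = 0.0013), higher in 3 of 3 SCI-labelled libraries than in any control-labelled one. Of the 614 rows tested, 39.4% passed this test in either direction, and 16.3% were higher. miR-218-5p took 0.857%, 0.589% and 0.868% of all counts in control-labelled cords (exact binomial 95% intervals 0.850 to 0.864%, 0.582 to 0.595% and 0.862 to 0.875%). In SCI-labelled cords it took 2.18%, 1.58% and 2.14% (2.17 to 2.19%, 1.57 to 1.59% and 2.13 to 2.15%). These intervals cover counting error only and are far narrower than the spread between libraries. By count it ranked 21st, 34th and 25th among the rows of control-labelled cords and 12th, 16th and 12th in SCI-labelled cords.

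**Figure D1:**
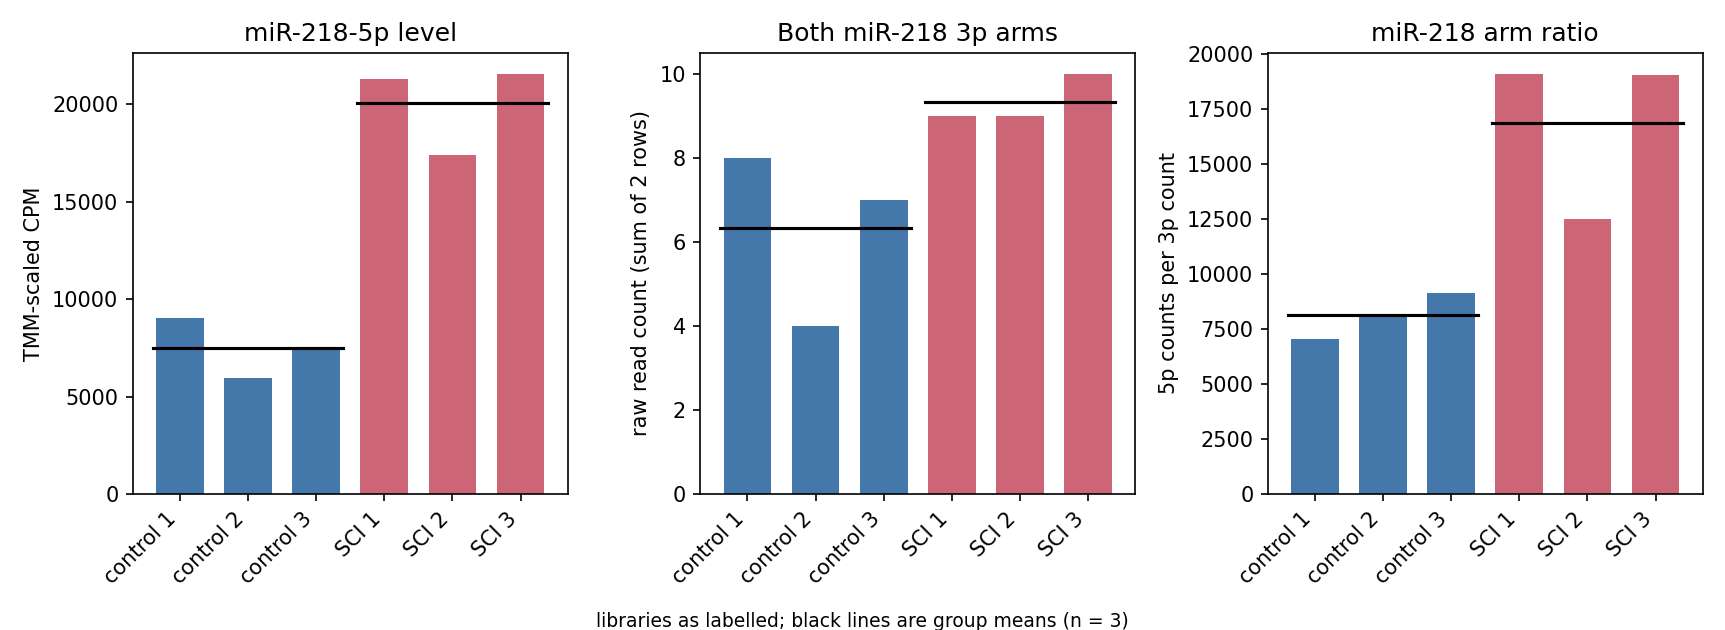
Bars give, for each of the 6 libraries as labelled, the TMM-scaled CPM of miR-218-5p (left), the summed raw read count of both 3p rows (middle) and the number of 5p counts per 3p count (right); black lines are means of 3 libraries. miR-218-5p is at 5934 to 9047 CPM in control-labelled cords and 17413 to 21555 CPM in SCI-labelled cords, while the 3p rows together have 4 to 10 counts in every library.

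Among the 100 rows called higher, the rise of miR-218-5p ranked 18th in fold. It ranked 7th of the 27 that had a mean of at least 1000 CPM over the libraries. Only 18 tested rows had a higher mean level than miR-218-5p, and the largest log2 change among those was 1.17, of miR-10b-5p, a miRNA of a Hox gene cluster. Of these 18 rows, 5 were called higher and 3 lower. The 18 include miR-1a-3p and miR-1b-5p, at nearly the same mean level (16466 and 16458 CPM), which may count the same reads. miRNA reads span the whole mature form, so the counts carry no term for length, but ligation preferences of the library kit between sequences were not measured.

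**Figure D2:**
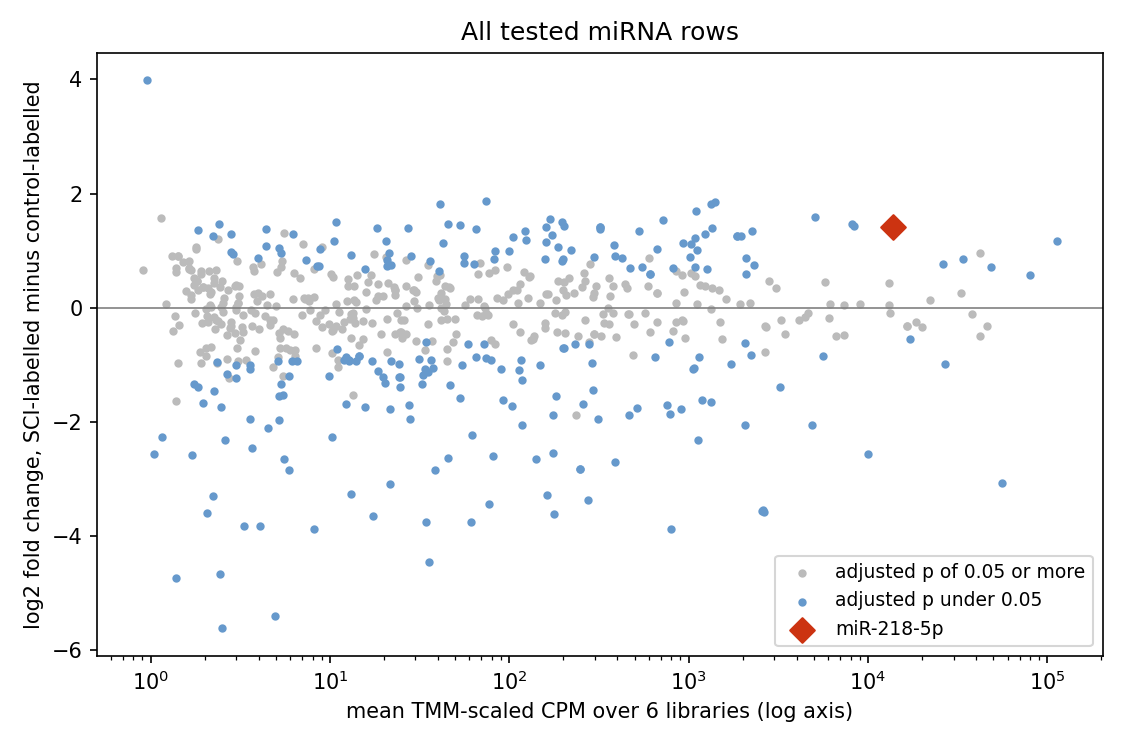
Each point is 1 of 614 tested rows, with its mean TMM-scaled CPM over 6 libraries (log axis) against its log2 fold change, SCI-labelled minus control-labelled; blue points have an adjusted p under 0.05. miR-218-5p (diamond) lies at a log2 change of 1.42, above all 18 rows that are more abundant than it.

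Reads of the 3p arms were rare. miR-218-1-3p, from the Slit2 hairpin, had 8, 4 and 4 counts in control-labelled cords and 8, 8 and 9 in SCI-labelled cords. miR-218-2-3p, from the Slit3 hairpin, had 0, 0 and 3 counts in control-labelled cords and 1, 1 and 1 in SCI-labelled cords. By a limit of 3 counts, the 0 counts allow TMM-scaled levels of up to 0.480 and 0.543 CPM in control-labelled libraries 1 and 2. Neither row passed the filter on low counts, so neither entered the test across rows. Of the 47 counts of both rows, 41 were of miR-218-1-3p (87.2%, exact binomial 95% interval 74.3 to 95.2%). This interval pools the libraries and covers counting error only, not the spread between them. It held 16 of 19 counts in control-labelled cords and 25 of 28 in SCI-labelled cords. The sources used here do not state how mismatches were treated, and 1 mismatch parts these forms over their overlap.

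Over all libraries 99.99% of miR-218 counts were of the 5p arm. With hairpins of 1 name pooled, 237 miRNA names had reads of both arms and at least 1000 counts. Among these, miR-218 had the 8th lowest share of its minor arm, 0.00749%, against a median of 2.29%. Names with no read of the minor arm were left out of this ranking. Names with equal or nearly equal main-arm counts, such as miR-467a and miR-467b (14499 each), were each kept in it. The summed 3p level was 0.943 ± 0.297 CPM in control-labelled cords and 1.21 ± 0.157 CPM in SCI-labelled cords (SD, n = 3 each; exact two-sided permutation p = 0.3). As pooled counts this is a ratio of 1.28 (exact Poisson 95% interval 0.689 to 2.42, for counting error only), beside the 2.68-fold difference of the 5p arm.

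There were 7063, 8195 and 9132 counts of the 5p arm per 3p count in control-labelled cords, and 19095, 12481 and 19027 in SCI-labelled cords. The groups did not overlap, and the share of other hairpins for which this held was not counted. The mean log2 ratio was 12.86 ± 0.18 and 13.94 ± 0.35 (SD, n = 3 each), a difference of 1.08. The exact two-sided permutation p was 0.1, the smallest that 3 libraries against 3 allow, so this test cannot place the arm ratio past 0.05. With 4 to 10 counts of the 3p arms in a library, counting error is a large part of each ratio.

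Other miRNAs of neurons were compared next, from a list of 19 that leaves out miR-218; all 19 were detected well enough to be tested. Messenger RNAs that define motor neurons were not analysed here, so the cells that held miR-218-5p were not identified. Of the 19, 8 were higher, 1 was lower and 10 did not pass the edgeR test, that is 42.1% higher beside 16.3% of all rows. The list was chosen with earlier results of these data known and holds both arms of some hairpins, so these shares only describe it. The list's median log2 change was 0.59, against -0.07 over all rows, and 15 of 19 changes had a positive sign. Closest to miR-218-5p were miR-128-3p, which tunes neuronal excitability (log2 1.46, SE 0.18), miR-135b-5p (1.44, SE 0.28), miR-129-5p (1.26, SE 0.20) and miR-153-3p, a regulator of synaptic vesicle release (1.24, SE 0.34). Their adjusted p-values from edgeR were 0.00058, 0.0045, 0.0016 and 0.020.

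The other members called higher were miR-139-5p (1.02), miR-135a-5p (0.88), miR-383-5p (0.59) and miR-9-5p, a miRNA of neural progenitors and neurons (0.58). The member called lower was miR-212-3p, an activity-induced miRNA (-0.91). The widely expressed neuronal miRNA miR-124-3p had a log2 change of -0.52, with 660, 725 and 2008 CPM in control-labelled libraries 1, 2 and 3 and 756 to 812 CPM in SCI-labelled cords. Its sign was positive without control-labelled library 3 (0.23). The other uncalled members ran from -0.46 (miR-9-3p) through -0.09 (miR-132-3p, also activity-induced), 0.26 (miR-129-2-3p), 0.44 (miR-7a-5p), 0.48 (miR-384-5p), 0.53 (miR-488-3p), 0.61 (miR-138-5p) and 0.62 (miR-124-5p) to 0.79 (miR-137-3p). That of miR-132-3p was 0.04 with upper quartile scaling.

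The number of neuron miRNAs called higher moved with single libraries, as did the number over all rows. Of the 19, 13 were higher without control-labelled library 3, and 4 each without SCI-labelled library 1 or 3, 5 each without SCI-labelled library 2 or control-labelled library 1, and 6 without control-labelled library 2. Over all 614 rows, the number called higher was 150 without control-labelled library 3, 60 and 53 without SCI-labelled library 1 or 3, 69 without SCI-labelled library 2, and 104 and 75 without control-labelled library 1 or 2, against 100 with all libraries. Without control-labelled library 3 the gains were miR-137-3p (edgeR adjusted p = 0.00064), miR-124-5p (0.0010), miR-138-5p (0.0038), miR-488-3p (0.0059) and miR-384-5p (0.0070). The call of miR-153-3p was lost without SCI-labelled library 1 (0.0606) or 3 (0.0690). Those of miR-9-5p (up to 0.165) and miR-135a-5p (up to 0.159) were lost when any 1 library other than control-labelled 3 was left out. That of miR-383-5p (up to 0.140) was lost when control-labelled library 1 or an SCI-labelled one was left out, and that of miR-212-3p (up to 0.101) when any 1 SCI-labelled library was. In the fit with each library left out, miR-218-5p ranged from log2 1.28, without control-labelled library 2, to 1.65, without control-labelled library 1, and its adjusted p reached at most 0.0116.

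**Figure D3:**
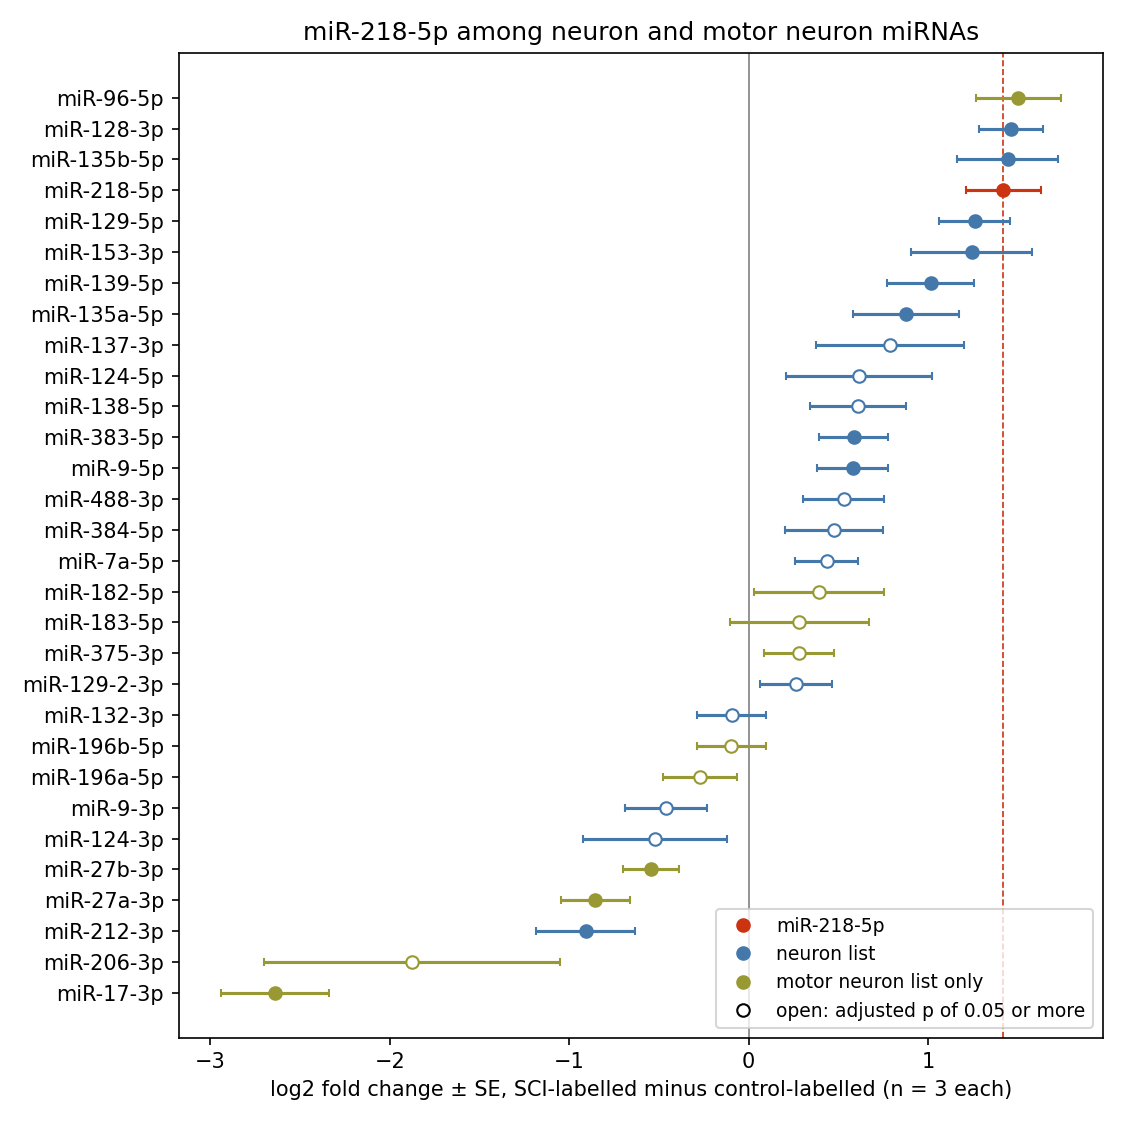
Points give the log2 fold change, SCI-labelled minus control-labelled (n = 3 each), with its standard error, for miR-218-5p (red, dashed line), 19 neuron miRNAs (blue) and the miRNAs only on the motor neuron list (olive); filled points have an adjusted p under 0.05. miR-218-5p at 1.42 stands beside miR-128-3p, miR-135b-5p and miR-96-5p, and miR-17-3p is lowest at -2.64.

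Whether these changes differ in size from that of miR-218-5p was tested by setting each library's size to its miR-218-5p count, so that every change is read relative to miR-218-5p. Of the 19 neuron miRNAs, 12 were lower relative to miR-218-5p past the threshold and 7 did not pass it. This is 63.2% of the list, beside 76.3% of all 613 rows (76.5% in either direction), where 1 row (0.163%) exceeded miR-218-5p past the threshold. Relative to miR-218-5p, miR-212-3p was lower by a log2 of -2.36 (SE 0.36), miR-124-3p by -1.96 (SE 0.36), miR-9-3p by -1.94 (SE 0.37), miR-132-3p by -1.52 (SE 0.34) and miR-9-5p by -0.85 (SE 0.37). The 7 without a called difference were miR-128-3p (-0.01, SE 0.36), miR-135b-5p (0.06, SE 0.34), miR-129-5p (-0.16, SE 0.34), miR-153-3p (-0.18, SE 0.34), miR-139-5p (-0.40, SE 0.34), miR-135a-5p (-0.55, SE 0.34) and miR-137-3p (-0.64, SE 0.35). These estimates leave room for differences larger than their standard errors, so a change equal to that of miR-218-5p was not shown for any of the 7.

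All of these relative changes share the error of miR-218-5p itself, so the calls are not independent of each other. With limma on the log2 ratios of counts to miR-218-5p, 10 of the 19 differed when the spread was pooled over rows (73.1% of all rows did). On the same ratios with each row's own spread 6 of the 19 differed (60.8% of all rows): miR-212-3p (adjusted p = 0.0119), miR-132-3p (0.0067), miR-9-3p (0.0198), miR-129-2-3p (0.0209), miR-9-5p (0.0403) and miR-7a-5p (0.0434). miR-124-3p was then at an adjusted p of 0.0527. Without SCI-labelled library 3 the edgeR fit called 5 of 19 (65.6% of all rows), and without SCI-labelled library 1 it called 8 (67.4%).

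Within single libraries the same comparison needs no scaling. There were 13.7, 8.18 and 3.75 counts of miR-218-5p per count of miR-124-3p in control-labelled libraries 1, 2 and 3, and 26.7, 23.0 and 26.5 in SCI-labelled cords. The groups did not overlap, and control-labelled library 3 was lowest. Per count of miR-128-3p there were 2.03, 1.22 and 2.02 counts of miR-218-5p in control-labelled cords and 1.67, 1.59 and 1.76 in SCI-labelled cords, which lie within the control-labelled range. Per count of miR-9-5p the values were 0.152, 0.111 and 0.0940 and then 0.208, 0.182 and 0.238, with no overlap. The share of all rows whose ratios do not overlap was not counted, while 76.5% of 613 rows differed relative to miR-218-5p in edgeR.

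A further list held 13 miRNAs described in motor neuron development, identity or disease, of which 3 (miR-9-5p, miR-9-3p and miR-124-3p) are also on the neuron list. Of the 13, 2 were higher (15.4%, beside 16.3% of all rows), 3 were lower (23.1% of all rows were) and 8 did not pass, with a median log2 change of -0.27. Besides miR-9-5p the member called higher was miR-96-5p, of a cluster known from sensory neurons (96.4, 111 and 101 CPM in control-labelled cords and 244, 380 and 252 CPM in SCI-labelled cords; 2.84-fold, SE 0.24 on the log2 scale; edgeR adjusted p = 0.0016). Its cluster partners, miR-182-5p at a log2 change of 0.39 and miR-183-5p at 0.28, were not called; without SCI-labelled library 2 their log2 changes were -0.0022 and -0.07.

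The members called lower were miR-17-3p, which acts on Olig2 in motor neuron progenitors (-2.64, SE 0.30), miR-27a-3p (-0.85, SE 0.19) and miR-27b-3p (-0.54, SE 0.16), which time Hox protein output in motor neurons. Counts of miR-17-3p were low, at 52, 52 and 93 in control-labelled libraries and 13, 7 and 16 in SCI-labelled ones. With limma on log2 TPM at a pseudocount of 10, its log2 change was -0.79. The call of miR-27a-3p was lost without SCI-labelled library 1 (edgeR adjusted p = 0.0503), and that of miR-27b-3p when any 1 library other than control-labelled 3 was left out (up to 0.134). miR-375-3p, a miRNA of motor neuron differentiation, had a log2 change of 0.28. The Hox regulators miR-196a-5p and miR-196b-5p had -0.27 and -0.10 (0.03 for the latter with upper quartile scaling). The muscle miRNA miR-206-3p, which promotes repair of the neuromuscular junction, had -1.88 (SE 0.82), with 888 CPM in control-labelled library 3 119 and 109 CPM in libraries 1 and 2, and 47.2, 129 and 129 CPM in SCI-labelled cords. Without control-labelled library 3 its log2 change was -0.13 (SE 0.35).

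The 5 rows whose level followed miR-218-5p most closely were taken by Pearson correlation of log2 CPM over the 6 libraries, among 226 rows with a mean of at least 100 CPM. They were miR-380-3p (r = 0.999), miR-132-5p (0.997), miR-381-3p (0.997), miR-376b-5p (0.996) and miR-467a-5p (0.979). The group difference dominates such values, and these 5 are the highest of many, so they are a description. With group means subtracted, r over the same libraries was 0.988, 0.966, 0.966, 0.967 and 0.921. The 5 rows were chosen on these libraries, so these values are no separate check. On the neuron list, r was 0.59 for miR-153-3p, 0.57 for miR-129-5p, 0.54 for miR-132-3p, 0.03 for miR-124-3p and -0.05 for miR-128-3p. It was -0.48 for miR-7a-5p and -0.70 for miR-383-5p. Off that list, it was 0.65 for the endothelial miR-126a-5p, 0.59 for miR-142a-3p, 0.51 for miR-21a-5p and -0.83 for miR-183-5p. miR-380-3p, miR-376b-5p and miR-381-3p lie on chromosome 12, at chr12:109711842-109711863, chr12:109723471-109723492 and chr12:109726870-109726891 (plus strand, GRCm38), and miR-132-5p on chromosome 11 at chr11:75173686-75173707.

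Their RefSeq sequences, with seeds in capitals, show that none of the 4 printed carries the seed of miR-218-5p:
miR-380-3p: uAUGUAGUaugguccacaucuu
miR-132-5p: aACCGUGGcuuucgauuguuac
miR-381-3p: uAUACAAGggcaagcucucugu
miR-376b-5p: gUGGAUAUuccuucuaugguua

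The level of miR-380-3p was 103, 67.5 and 90.7 CPM in control-labelled cords and 254, 197 and 249 CPM in SCI-labelled cords (log2 1.42, SE 0.23; edgeR adjusted p = 0.0019). As with miR-218-5p, library 2 was the lowest of each group. There were 87.7, 87.9 and 83.0 counts of miR-218-5p per count of miR-380-3p in control-labelled cords and 83.9, 88.3 and 86.6 in SCI-labelled cords. This ratio varied little over all 6, for a row chosen as the most alike. miR-132-5p was log2 1.53 higher (SE 0.23) while the other arm of its hairpin, miR-132-3p, had -0.09.

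**Figure D4:**
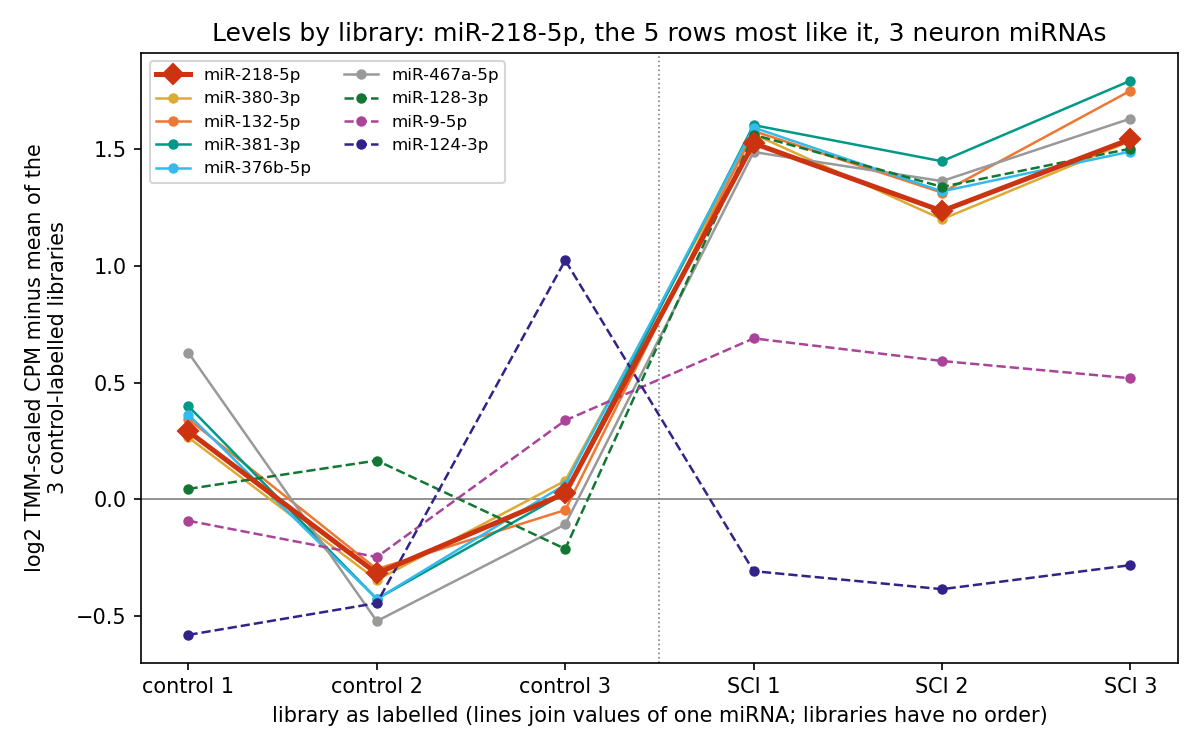
For each library, points give the log2 TMM-scaled CPM minus the mean of the 3 control-labelled libraries, for miR-218-5p (red diamonds), the 5 rows most like it (solid lines) and 3 neuron miRNAs (dashed lines); lines only join values of 1 miRNA. miR-380-3p runs with miR-218-5p in every library, miR-9-5p is higher by 0.58 in the fit, and miR-124-3p is highest in control-labelled library 3, at 2008 CPM.

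The nearest other hairpin on chromosome 11 is Mir103-1, 165471 bases from Mir218-2 on the same strand. Its main product, miR-103-3p, which a further hairpin also makes, was at 7200 ± 1224 CPM in control-labelled cords and 4005 ± 513 CPM in SCI-labelled cords (SD, n = 3 each; log2 -0.85, SE 0.20; edgeR adjusted p = 0.0104), the opposite direction to miR-218-5p. On chromosome 5 the nearest is Mir8117, 2028711 bases from Mir218-1, which was not analysed here.

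Some lists of markers of other cell types moved with the groups and others did not. Of all rows, 39.4% were called in either direction and 23.1% were called lower. The 5 tested leukocyte miRNAs summed to 1778 to 2983 CPM in control-labelled cords and 328 to 450 CPM in SCI-labelled cords, and all 5 were called lower. Of these, miR-223-3p, miR-142a-3p, miR-142a-5p and miR-155-5p are also on the injury response list, so the lists are not separate observations. The 4 erythroid miRNAs summed to 9426 to 32718 CPM and 2481 to 5231 CPM, and all 4 were called lower. The 2 endothelial miRNAs (12211 to 28514 and 16412 to 18789 CPM) and the 5 oligodendrocyte miRNAs (10222 to 13828 and 11804 to 12570 CPM) overlapped between the groups, and 0 of these 7 passed the edgeR test (0 at an unadjusted p under 0.05, and 0 with DESeq2 or limma voom; 2 without control-labelled library 3). The 19 neuron miRNAs summed to 78651 to 105132 CPM in control-labelled cords and 127744 to 140529 CPM in SCI-labelled cords, most of it miR-9-5p. Their part in the difference of miR-218-5p was not tested. The 5 tested skeletal muscle miRNAs reached 37807 CPM in control-labelled library 3, against 8309 and 11935 CPM in libraries 1 and 2 and 9868 to 20460 CPM in SCI-labelled cords. Of these 5, miR-499-5p was called higher (log2 0.81, SE 0.26; edgeR adjusted p = 0.036) and the other 4 did not pass. Without control-labelled library 3 the difference of miR-218-5p was at log2 1.46 (edgeR adjusted p = 0.00033). The part of muscle content in this difference was not tested.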

How the data were processed

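Small RNA libraries were made from 3 µg of total RNA each with the NEBNext small RNA kit, per the labels' protocols. The deposited table gives whole-number read counts, which the authors left without normalization, and TPM values deposited beside them, which equal CPM from the column totals. Bowtie and mm10 are named in the submitters' processing notes; the sources used here do not state the miRBase release or how reads matching several miRNAs were handled.

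The analysis used edgeR 4.0.16 under R 4.3.3: filterByExpr with a minimum count of 10 (614 rows kept), TMM, and the robust quasi-likelihood F test with Benjamini-Hochberg adjustment over all rows tested, at 0.05. Log2 fold changes are SCI-labelled over control-labelled, and CPM are TMM-scaled. Changes relative to miR-218-5p came from the same fit with library sizes set to its counts. Single values were compared by exact permutation. Alternatives used DESeq2 1.42.0, limma 3.58.1, other scalings, no filter, the replicate block and each library left out. Every limma voom fit used quality weights, which give less weight to outlying libraries. Scripts were checked on simulated data. Replicates differed by more than sampling noise.

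The members and lists were chosen with earlier results of these data known. Named miRNAs are all members of the neuron and motor neuron lists, the 5 rows most like miR-218-5p, its nearest hairpins, and the leading members of other lists; miR-10b-5p was named after its values were seen.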

Additional observations from a re-analysis of the deposited data

How the results depend on the processing

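The difference of miR-218-5p kept its direction and its side of the threshold in all 16 alternatives, at log2 1.28 to 1.65 and adjusted p-values of 1.39e-09 to 0.0116. Deviations of same-numbered libraries from their group means had correlations of -0.23, 0.13 and -0.16. Those of differently numbered libraries ran from -0.18 to 0.29. With so few libraries these values cannot decide whether the numbers pair them, and the main fit used no pairing. With the replicate block miR-218-5p was at log2 1.44 (edgeR adjusted p = 0.0011). In that fit 6 neuron miRNAs were called (all higher) and 11 differed from miR-218-5p (76.8% of all rows did). Of 614 rows, 78 were higher and 112 lower with the block, against 100 and 142 without it, and upper quartile scaling gave 120 and 120, the library total 75 and 144.

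The number of neuron miRNAs past the test was 14 with limma voom with library quality weights, where 125 of all 614 rows were higher and 161 lower. It was 5 with limma on log2 TPM at each pseudocount (1, 0.1 and 10). There 77 to 79 of all rows were higher and 138 to 143 lower. In the main fit it was 9, with 100 of all rows higher and 142 lower. With 1 library left out it ran from 4 to 14, while 53 to 150 of all rows were higher and 91 to 167 lower. The number that differed from miR-218-5p ran from 5 to 14 with 1 library left out (65.6 to 78.6% of all rows). With all libraries it was 12 (76.5%). With limma on log2 ratios it was 6 without pooling of the spread (60.8%) and 10 with it (73.1%), both chosen after seeing the data. The difference in log2 arm ratio ran from 0.97 to 1.28 with 1 library left out and was 1.03 with 0 added to the counts. The summed 3p arms had a log2 change of 0.36, 0.028 at a pseudocount of 10 TPM, where the added value exceeds the level, and 0.21 to 0.65 with 1 library left out; with no filter edgeR gave 0.39 (adjusted p = 0.67). DESeq2, voom and the block gave no value for the 3p arms, which the filter removes.

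Signs turned for the following results, none past the threshold in the main fit or where the sign turned, and the cause was not tested. Relative to miR-218-5p, miR-137-3p did pass without control-labelled library 1 (edgeR adjusted p = 0.0484), where its sign had not turned. miR-124-3p was at 0.0069 with voom, and -0.76 to 0.23 with 1 library left out. miR-132-3p was at 0.036 and miR-196b-5p at 0.025 with the upper quartile. With 1 library left out, miR-132-3p ran from -0.21 to 0.047, miR-196b-5p from -0.18 to 0.016, miR-183-5p from -0.072 to 0.79 and miR-182-5p from -0.0022 to 0.78. Relative to miR-218-5p, miR-128-3p was at 0.027 with voom, 0.034 with the replicate block and 0.033 in both limma fits on log2 ratios, and at -0.13 to 0.28 with 1 library left out, where miR-137-3p ran from -0.90 to 0.021, miR-153-3p from -0.35 to 0.23 and miR-135b-5p from -0.073 to 0.15.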
